A study of Mus musculus with 52 samples.

Results

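The genes described here make cholesterol and fatty acids or control the genes that do. They were chosen by name from a list of 33 symbols, matched to the symbol column of a table of read counts from mouse frontal cortex. Of the 33, 32 had a row among the 15692 genes of the table and all 32 passed the filter on low counts, which kept 15195 genes. Hmgcs1, the cytosolic synthase that feeds the mevalonate pathway, was not analysed here. The 32 genes comprise 7 of the mevalonate pathway, 12 of the steps from squalene to cholesterol, 6 regulators of sterol regulatory element binding proteins (SREBPs) and sterol carriers, and 7 of fatty acid synthesis.

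The mevalonate pathway turns acetyl-CoA into isoprenoid units, which are joined to farnesyl diphosphate and then squalene, and squalene is oxidised, closed to a ring system and trimmed to cholesterol. SREBPs are transcription factors held in the endoplasmic reticulum membrane. When sterols are scarce, Scap escorts them to the Golgi to be released, and when sterols are plentiful, Insig proteins hold Scap back. The brain makes its own cholesterol, since lipoproteins of the blood do not cross the blood-brain barrier in quantity, and apolipoprotein E carries cholesterol between its cells.

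All mice carried the APP/PS1ΔE9 transgenes, which lead to amyloid plaques, and were homozygous for human APOE4 (APP/E4) or human APOE3 (APP/E3) placed at the mouse Apoe locus. Males and females of either genotype ate a Western diet rich in milk fat and corn oil (HFD), with 40% of its calories from fat, or normal chow (ND). The APP/E4 mice comprised 7 HFD females, 7 ND females, 5 HFD males and 6 ND males, and the APP/E3 mice 8 HFD females, 7 ND females, 6 HFD males and 6 ND males. Per the protocols, the diets began when mice averaged 3.5 months of age and lasted 3 months, while behaviour was tested when they averaged 14.7 months. The protocols do not say how these times fit together or how old each mouse was when tissue was taken. There was no group without the APP/PS1ΔE9 transgenes and none with mouse Apoe, so the diet contrasts hold within plaque-forming mice with human APOE alone. The comparison of genotypes sets 1 targeted line against another, and differences in their flanking genome cannot be told apart from APOE itself.

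The 52 libraries held between 5.34 and 13.1 M counts, apart from 1 APP/E3 ND male with 39.4 M. Clustering by the counts of 50 pseudogenes split them into 3 read classes, a number set for the clustering. The labels do not say what these classes are. Class 1 held 33 libraries from both sexes, class 2 held 11, all female, and class 3 held 8, all male with titles that carry no sex letter. Class 2 held 5 of the 8 APP/E3 HFD females but 2 of the 7 libraries in each other female group, so for the main differences in females the values within class 1 are given as well. Another 5 libraries, all female and 4 of them HFD, had over 100 CPM (counts scaled to a common library total with TMM factors) summed over the 5 choroid plexus markers. The libraries carry separate codes in their titles, but the labels do not state that each is a separate animal, so p-values measure the spread between these libraries.

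Mean levels of the 32 genes ran from 8.75 CPM for Idi1 to 1714 CPM for Scd2, with a median of 49.0 CPM. These values are not per length, so levels are compared within a gene only. Insig1, Nsdhl and Acat2 had the smallest p-values in the diet contrast averaged over genotype and sex, and their promoters are shown for that reason. The sequences are RefSeq's on the GRCm38.p6 build, with 250 bases before and 50 after the annotated start, each on the strand of its gene. Capitals mark CCAAT, the motif bound by the factor NF-Y, written ATTGG where it lies on the opposite strand, and CACCCCAC, the core of the sterol regulatory element. Insig1 lies at chr5:28071162-28071461 on the plus strand, Nsdhl at chrX:72918271-72918570 on the plus strand and Acat2 at chr17:12960676-12960975 on the minus strand.
Insig1: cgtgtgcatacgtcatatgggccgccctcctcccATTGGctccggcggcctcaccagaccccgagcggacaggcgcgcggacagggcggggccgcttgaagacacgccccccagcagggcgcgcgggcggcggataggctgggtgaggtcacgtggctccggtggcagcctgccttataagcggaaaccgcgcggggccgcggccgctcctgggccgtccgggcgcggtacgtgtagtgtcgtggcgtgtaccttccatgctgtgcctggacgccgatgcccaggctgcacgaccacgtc
Nsdhl: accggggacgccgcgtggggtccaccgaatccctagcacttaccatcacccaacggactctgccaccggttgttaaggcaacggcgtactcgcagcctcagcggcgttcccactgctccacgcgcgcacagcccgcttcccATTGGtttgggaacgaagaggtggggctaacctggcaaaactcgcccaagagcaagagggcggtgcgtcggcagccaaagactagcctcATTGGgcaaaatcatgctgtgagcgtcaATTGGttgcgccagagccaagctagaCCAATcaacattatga
Acat2: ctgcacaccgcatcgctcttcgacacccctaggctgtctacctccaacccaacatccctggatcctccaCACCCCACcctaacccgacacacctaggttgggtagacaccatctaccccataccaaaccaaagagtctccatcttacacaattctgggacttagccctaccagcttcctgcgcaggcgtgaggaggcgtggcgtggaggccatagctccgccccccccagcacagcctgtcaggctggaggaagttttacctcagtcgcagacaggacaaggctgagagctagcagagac
CCAAT stood on either strand in 22 of the 26 genes that had a promoter in the sequence table (84.6%), against 41.1% of all genes in it. GGGCGG, the GC box bound by Sp1, stood in 21 of the 26 (80.8%), against 38.2% of all genes. CACCCCAC stood in Acat2 alone (3.85% of the 26 genes), against 3.3% of all genes. The 3 motifs were searched on both strands and do not contain each other. Only exact letters were counted, so a near match such as CACCCCAT in the Srebf2 window was not. Fdps, Fdft1, Sqle, Stard4, Scd1 and Scd2 had no promoter to search. The 27025 genes of the comparison were not limited to genes tested here. Matches of this kind describe letters in the window and do not show binding, and their lack does not show its absence.

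The first question was whether HFD moved these genes across all mice. Averaged over genotype and sex, 23 of the 32 genes were lower in HFD than in ND cortex, but the differences were small and none passed the test. The median log2 difference (HFD minus ND) was -0.036, against -0.0020 over all tested genes, of which 51.2% were lower. The edgeR quasi-likelihood test with Benjamini-Hochberg adjustment called 0 of the 32 genes and 0 of all 15195 (0%), and DESeq2 and limma voom also called 0 of the 32. At an unadjusted p under 0.05 there were 7 genes, all lower, against 4.8% of all genes that were lower at that level and 9.2% in either direction. In bulk cortex, fewer cells of a type and less RNA per cell cannot be told apart.

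By role, 6 of 7 mevalonate genes were lower in HFD mice (median -0.11), 9 of 12 genes from squalene to cholesterol (median -0.07), 4 of 6 SREBP regulators and sterol carriers (median -0.03) and 4 of 7 fatty acid synthesis genes (median -0.01). The 7 genes at the unadjusted threshold were Acat2 and Mvk of the mevalonate pathway, Sqle, Msmo1, Nsdhl and Ebp of the later sterol steps, and Insig1. No fatty acid synthesis gene was among them.

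**Figure D1:**
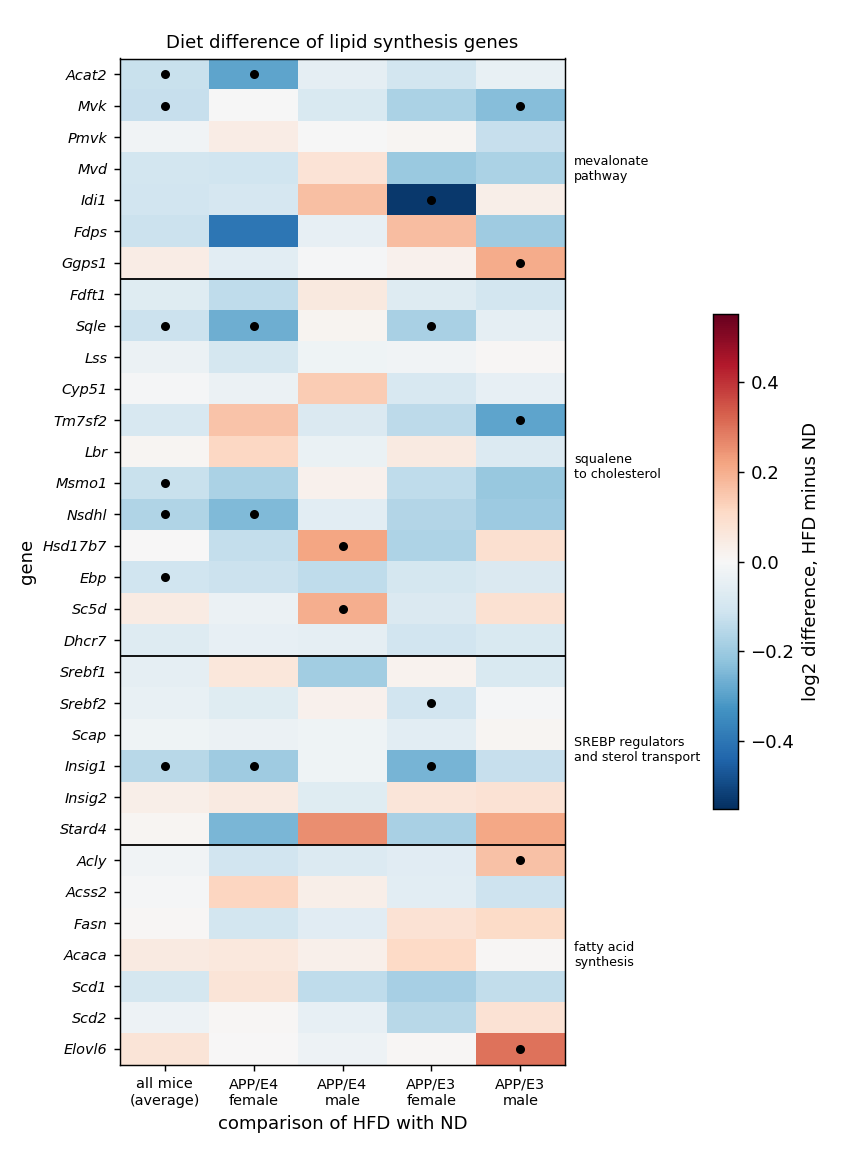
Log2 difference (HFD minus ND, colour scale) of the 32 genes, by row and grouped by role, over all mice and in each genotype and sex, by column. A black dot marks an unadjusted p under 0.05, which 7 genes had over all mice, all of them lower in HFD mice, and no gene passed the adjusted threshold in any column.

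Insig1, which holds the SREBP escort in the endoplasmic reticulum, ran from 41.6 to 83.4 CPM with a median of 66.5 in the 26 HFD libraries, against 57.8 to 88.6 CPM with a median of 75.6 in the 26 ND libraries. Most of the 2 ranges overlapped, and the means were 66.8 ± 8.37 CPM in HFD and 74.7 ± 8.07 CPM in ND (SD, n = 26 each). The log2 difference was -0.15 ± 0.05 (SE), with an unadjusted p of 0.00293 and an edgeR adjusted p of 0.355. Nsdhl, a dehydrogenase of the demethylation steps, ran from 22.1 to 38.3 CPM with a median of 26.8 in HFD, against 25.6 to 48.0 CPM with a median of 30.2 in ND. Its ranges also overlapped, and its difference was -0.16 ± 0.06 (unadjusted p = 0.00593, edgeR adjusted p = 0.370). Acat2, the cytosolic thiolase that joins acetyl-CoA units, ran from 30.6 to 42.0 CPM with a median of 36.4 in HFD, against 30.2 to 49.4 CPM with a median of 38.6 in ND. The HFD range lay inside the ND range, and the difference was -0.12 ± 0.05 (unadjusted p = 0.0106, edgeR adjusted p = 0.410).

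Sqle, the squalene epoxidase, ran from 63.6 to 109.6 CPM with a median of 81.2 in HFD, against 72.9 to 121 CPM with a median of 88.5 in ND. Its difference was -0.12 ± 0.05 (unadjusted p = 0.0168), and those of Mvk, the mevalonate kinase, and Msmo1, a sterol methyl oxidase, were also -0.12 ± 0.05 (unadjusted p = 0.0180 and 0.0191). Ebp, the isomerase bound by the drug emopamil, differed by -0.11 ± 0.05 (unadjusted p = 0.0211). Leaving out any 1 of the 52 libraries kept Insig1, Nsdhl, Acat2, Sqle, Mvk and Msmo1 under the unadjusted threshold, and Ebp left it in 1 such fit, the one without APP/E3 ND male 2 (edgeR, unadjusted p = 0.0507). Without the 5 libraries high in choroid plexus markers, 5 genes stayed under it, all lower. The share of all genes under it in that fit is not given here, so the count is a description only.

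None of the fatty acid synthesis genes or SREBP genes reached the unadjusted threshold in this contrast. Fasn, the fatty acid synthase, ran from 330 to 448 CPM with a median of 378 in HFD, against 316 to 417 CPM with a median of 375 in ND. Scd1, a desaturase that makes monounsaturated fatty acids, ran from 185 to 359 CPM with a median of 227 in HFD, against 192 to 337 CPM with a median of 256 in ND. Scd2, the desaturase more abundant in brain, ran from 1211 to 2068 CPM with a median of 1736 in HFD, against 1045 to 2027 CPM with a median of 1756.2 in ND. The ranges overlapped over most of their length in all 3 genes. The SREBP genes overlapped as well. Srebf1 ran from 54.9 to 104 CPM with a median of 68.2 in HFD, against 52.5 to 97.3 CPM with a median of 73.9 in ND, and Srebf2 from 259 to 310.5 CPM with a median of 284 in HFD, against 251 to 349 CPM with a median of 293 in ND.

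With read class as a term in the fit, 9 of the 32 genes had an unadjusted p under 0.05 for the averaged diet contrast, all lower, against 5.49% of all genes that were lower at that level in this fit. Fdps, the farnesyl diphosphate synthase, joined them at -0.20 ± 0.05 (unadjusted p = 0.00074), as did Fdft1, the squalene synthase, at -0.09. Within class 1 alone the count was 10, all lower, against 3.56% of all genes, with Sqle at -0.20 ± 0.05 (unadjusted p = 0.00013), Insig1 at -0.19 ± 0.06, Nsdhl at -0.19 ± 0.06 and Acat2 at -0.15 ± 0.06 (unadjusted p = 0.00210, 0.00453 and 0.0169). No gene passed the adjusted threshold in either fit. The direction of the coefficient in the authors' deposited table is not given in the sources used here. It was read as ND minus HFD because it correlated across genes at r = -0.96 with the HFD minus ND difference computed here, so its direction is no independent evidence. Read so, 24 of the 32 genes in the authors' deposited table were lower in HFD, and 6 had a p-value under 0.05, all lower in HFD, against 7.69% of all genes in that table.

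**Figure D2:**
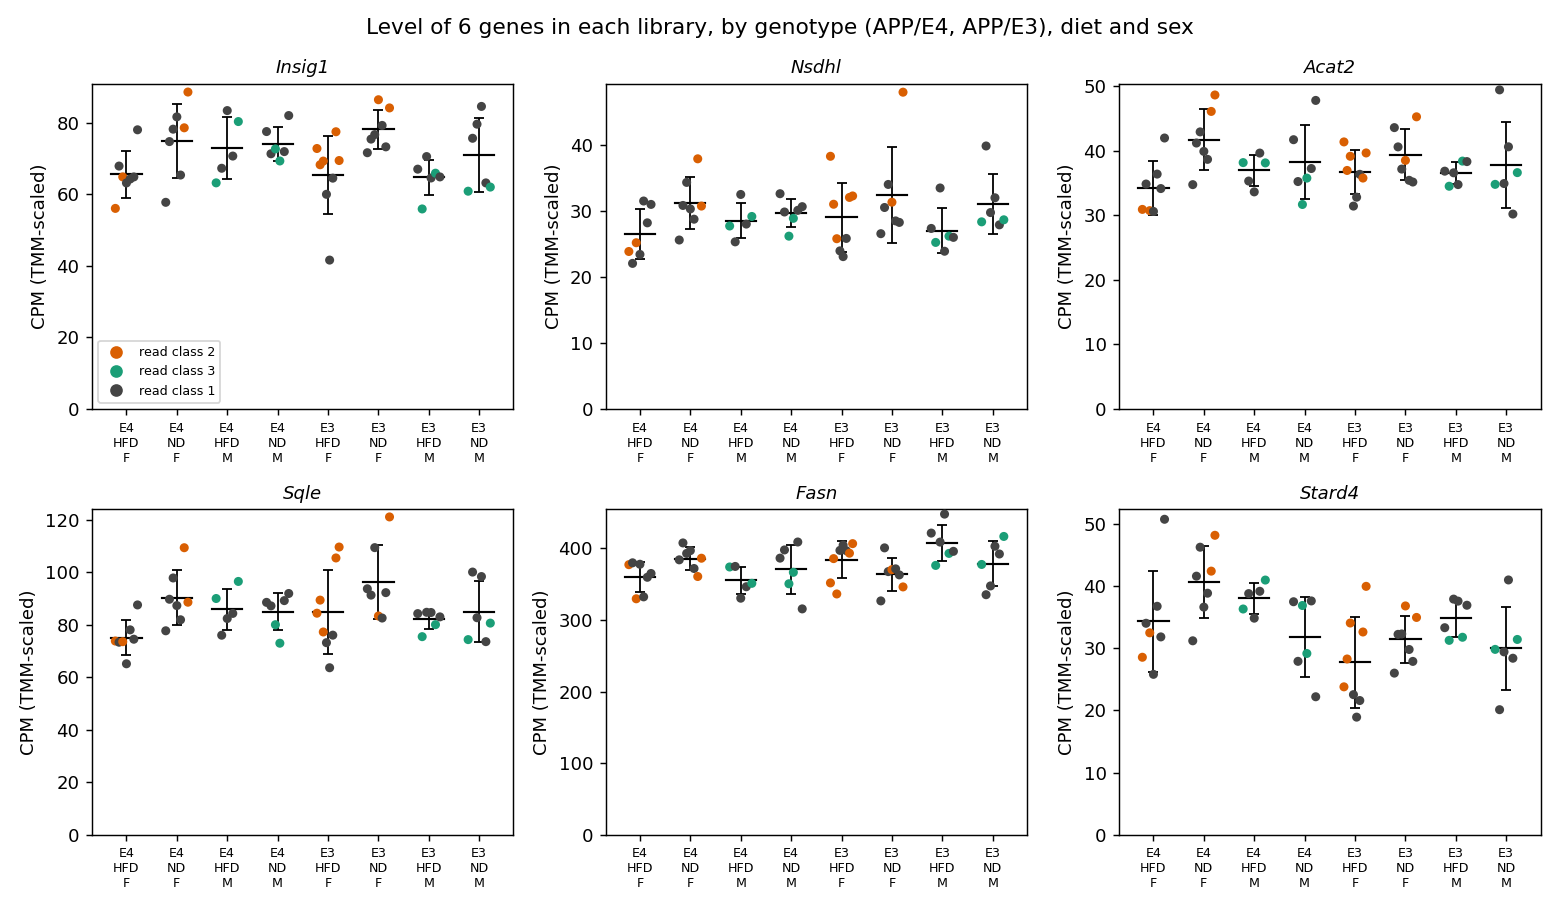
CPM of 6 genes in each library (points, coloured by read class) in the 8 groups, with the group mean (line) and SD (bars). HFD and ND libraries of every genotype and sex overlapped for each gene, and the lowest Insig1 value, 41.6 CPM, was an APP/E3 HFD female of class 1.

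The next question was whether the diet difference held in each genotype and sex. These contrasts use the same libraries as the average, so they do not support it independently. In none of the 4 groups was a gene of the list called, and none had HFD and ND libraries that did not overlap. In the same 4 contrasts, the share of all genes without overlap was 0.0724% in APP/E4 females, 0.316% in APP/E4 males, 0.0329% in APP/E3 females and 1.76% in APP/E3 males.

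In APP/E4 females, 22 of the 32 genes were lower in HFD (48.3% of all genes), with a median of -0.06. Their edgeR count was 0 (0% of all genes), and 4 had an unadjusted p under 0.05, all lower, against 3.1% of all genes that were lower at that level. Acat2 ran from 30.6 to 42.0 CPM with a median of 34.1 in HFD, against 34.7 to 48.6 CPM with a median of 41.2 in ND. The libraries overlapped between 34.7 and 42.0 CPM, and the difference was -0.29 ± 0.09 (unadjusted p = 0.00160, edgeR adjusted p = 0.599). Sqle ran from 65.1 to 87.5 CPM with a median of 73.8 in HFD, against 77.7 to 109 CPM with a median of 88.5 in ND, a difference of -0.27 ± 0.09 (unadjusted p = 0.00596). Nsdhl differed by -0.24 ± 0.11 and Insig1 by -0.20 ± 0.09 (unadjusted p = 0.0332 and 0.0388). Nsdhl had medians of 25.2 CPM in HFD and 30.7 CPM in ND, and Insig1 of 64.9 CPM in HFD and 78.2 CPM in ND, with overlapping libraries in both. Within class 1, Acat2 was at -0.15 ± 0.10, Insig1 at -0.08 ± 0.10, Nsdhl at -0.14 ± 0.11 and Sqle at -0.20 ± 0.08 (unadjusted p = 0.161, 0.416, 0.222 and 0.0239). In that class, with 5 libraries of each diet, 0 of the 32 genes did not overlap, against 0.698% of all genes. Within class 2, with 2 libraries of each diet, 3 were higher and 15 lower without overlap, against 32.7% of all genes in either direction. Choroid plexus markers moved with this contrast: all 5 were higher in HFD, with a median log2 difference of 1.43, and 3 of the 7 HFD libraries exceeded 100 CPM summed over them. Other marker sums differed as well. The 8 striatal markers summed to a median of 356 CPM in HFD, against 1348 CPM in ND. The 7 microglial markers summed to a median of 656 CPM in HFD, against 503 CPM in ND, and the 6 endothelial markers to 265 CPM in HFD, against 223 CPM in ND. Libraries of the 2 diets overlapped in each of these sums. The part of these cells and tissues in the result was not tested, beyond a fit without the 5 libraries high in choroid plexus markers. That fit also dropped an ND library of class 2, APP/E4 ND female 7. It kept Acat2 at -0.24 ± 0.11, Sqle at -0.24 ± 0.12 and Nsdhl at -0.30 ± 0.14 and put Insig1 at -0.13 ± 0.11.

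In APP/E4 males, 20 of the 32 genes were lower in HFD (50.8% of all genes), 0 were called (0% of all genes), and the 2 with an unadjusted p under 0.05 were both higher, against 1.75% of all genes that were higher at that level. Sc5d, a desaturase near the end of the sterol pathway, stood at 58.1, 61.3, 68.3, 60.9 and 63.3 CPM in the 5 HFD libraries, against 46.1 to 65.3 CPM with a median of 54.3 in the 6 ND libraries. Hsd17b7, a keto reductase of the demethylation steps, stood at 30.7, 31.0, 38.8, 31.4 and 34.7 CPM in HFD, against 25.5 to 32.0 CPM with a median of 28.4 in ND. The groups overlapped in both genes, with log2 differences of 0.20 ± 0.09 for Sc5d and 0.22 ± 0.11 for Hsd17b7 (unadjusted p = 0.0269 and 0.0477). Every edgeR adjusted p of the list in this contrast was at least 0.994. Insig1, which was lower in the average, stood at 63.2, 67.3, 83.4, 70.7 and 80.4 CPM in the HFD males of this genotype. In the 6 ND males it ran from 69.3 to 82.1 CPM with a median of 72.3, against an HFD median of 70.7, and the diets overlapped. Within class 1 no gene of the list reached an unadjusted p under 0.05 in APP/E4 males. In that class, with 3 HFD and 4 ND libraries, Sqle and Elovl6 were lower in HFD without overlap, as 7.58% of all genes were higher or lower without overlap.

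In APP/E3 females, 23 of the 32 genes were lower in HFD (51.6% of all genes), with a median of -0.09. The edgeR test called 0 of the 32 and 4 of all genes (0.0263%), and 4 of the list had an unadjusted p under 0.05, all lower, against 2.32% of all genes that were lower at that level. Idi1, the isomerase that converts isopentenyl diphosphate, ran from 4.38 to 8.61 CPM with a median of 5.42 in HFD, against 5.84 to 12.5 CPM with a median of 8.30 in ND. Its difference was -0.53 ± 0.16 (unadjusted p = 0.00141, edgeR adjusted p = 0.685), and with read class as a term it was -0.34 ± 0.12 and within class 1 -0.44 ± 0.18 (unadjusted p = 0.00681 and 0.0212). Insig1 ran from 41.6 to 77.5 CPM with a median of 68.8 in HFD, against 71.7 to 86.5 CPM with a median of 76.7 in ND, a difference of -0.26 ± 0.09 (unadjusted p = 0.00597). Srebf2, the gene of the SREBP that mainly drives sterol synthesis, ran from 268 to 304 CPM with a median of 282 in HFD, against 278 to 349 CPM with a median of 307 in ND, a difference of -0.11 ± 0.05 over the group and -0.16 ± 0.08 within class 1 (unadjusted p = 0.0361 and 0.0705). Sqle differed by -0.18 ± 0.09 (unadjusted p = 0.0493). The libraries of the 2 diets overlapped in all 4 of these genes.

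APP/E3 females were the group in which read class was least evenly spread over the diets, and Insig1 and Sqle differed by more within class 1 than over the whole group. With read class as a term, 27 of the 32 genes were lower in HFD (52.4% of all genes) and 9 had an unadjusted p under 0.05, all lower, against 3.05% of all genes that were lower at that level. Within class 1, with 3 HFD and 5 ND libraries, 26 genes were lower (50.7% of all genes) and 14 had an unadjusted p under 0.05, all lower, against 4.08% of all genes, though 0 of the 32 were called by edgeR. Insig1 stood at 41.6, 60.0 and 64.5 CPM in the class 1 HFD libraries, against 71.7 to 79.3 CPM in the 5 ND libraries, a difference of -0.45 ± 0.12 (unadjusted p = 0.000566). Sqle stood between 63.6 and 76.0 CPM in the class 1 HFD libraries, against 82.5 to 109 CPM in ND, a difference of -0.41 ± 0.10 (unadjusted p = 0.000233, edgeR adjusted p = 0.22). The diets did not overlap for either gene within class 1. In the same libraries 10 of the 32 genes did not overlap, against 8.23% of all genes: Fdps, Sqle, Cyp51, Msmo1, Nsdhl, Hsd17b7, Mvk, Insig1 and Stard4 were lower in HFD, and Srebf1 was higher. Within class 2, with 5 HFD and 2 ND libraries, 3 of the 32 did not overlap, close to the 8.51% of all genes. A count this near the share over all genes tells nothing of the list. The genes were Scd2, Lbr and Insig1, 1 higher and 2 lower in HFD. Insig1 was lower, at 68.3 to 77.5 CPM in the HFD libraries, against 84.2 and 86.5 CPM in the ND libraries.

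Markers of cell types moved with the same split. In class 1 APP/E3 females, the summed level of 10 neuronal markers ran from 6734 to 7121 CPM in HFD, against 7414 to 8767 CPM in ND, with no overlap. That of 5 oligodendrocyte precursor markers ran from 171 to 181 CPM in HFD, against 126 to 166 CPM in ND, also with no overlap. The 12 astrocyte markers summed to between 7022 and 7182 CPM in HFD, against 5060 to 7161 CPM in ND, and the 17 myelin markers to between 3808 and 4148 CPM in HFD, against 1417 to 3946 CPM in ND. The 5 choroid plexus markers summed to 30.0, 44.3 and 2572 CPM in HFD, against 9.90 to 33.7 CPM in ND. The 5 blood markers summed to between 2.40 and 5.07 CPM in HFD, against 2.42 to 218 CPM in ND. Over the whole APP/E3 female group the haemoglobin genes Hbb-b1 and Hba-a1 were the only marker genes called, at -4.14 and -4.33 (edgeR adjusted p = 0.0431 for both). Their calls were lost with limma voom, with read class as a term, within class 1 and without the 5 choroid plexus libraries. Over this group the blood sum had a median of 2.61 CPM in HFD and of 5.49 CPM in ND, with the highest ND library at 218 CPM. The part of these cell types in the sterol gene differences was not tested. Over the whole APP/E3 female group, leaving out the library with 2572 CPM of choroid plexus markers and the other 4 such libraries kept Insig1 at -0.25 ± 0.09 and Idi1 at -0.62 ± 0.16, and put Sqle at -0.16 ± 0.10.

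In APP/E3 males, 19 of the 32 genes were lower in HFD (52.8% of all genes), 0 were called (0% of all genes), and 5 had an unadjusted p under 0.05, in a contrast where 13.6% of all genes did. Of these, 3 were higher in HFD (6.21% of all genes were higher at that level) and 2 lower (7.38%). Elovl6, the elongase of medium-length saturated and monounsaturated fatty acids, ran from 65.3 to 77.0 CPM with a median of 73.7 in HFD, against 43.3 to 70.5 CPM with a median of 59.5 in ND, a difference of 0.30 ± 0.12 (unadjusted p = 0.0133, edgeR adjusted p = 0.304). Ggps1, which makes geranylgeranyl diphosphate, differed by 0.21 ± 0.09, and Acly, which makes cytosolic acetyl-CoA from citrate, by 0.16 ± 0.08. The lower genes were Mvk at -0.24 ± 0.10, with medians of 17.4 CPM in HFD and 20.6 CPM in ND, and Tm7sf2, a sterol reductase, at -0.29 ± 0.14, with medians of 12.7 CPM in HFD and 15.8 CPM in ND. The groups overlapped in each of these genes. Within class 1, with 4 libraries of each diet, Elovl6 and Acly were higher in HFD without overlap, as 7.05% of all genes were higher or lower without overlap.

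The diet difference was then compared between genotypes and between sexes. For diet by genotype (the diet difference in APP/E4 minus that in APP/E3), 14 of the 32 genes were negative (47.6% of all genes), 0 were called (0% of all genes) and 1 had an unadjusted p under 0.05, against 9.97% of all genes. That gene was Fasn, at -0.17 ± 0.06 (unadjusted p = 0.00429, edgeR adjusted p = 0.451). Fasn medians were 365 CPM in HFD and 386 CPM in ND for APP/E4 females, and 395 CPM in HFD and 368 CPM in ND for APP/E3 females. In males, Fasn stood at 374, 375, 331, 347 and 351 CPM in the APP/E4 HFD libraries, against an ND median of 377 CPM, and APP/E3 had medians of 402 CPM in HFD and 385 CPM in ND. The HFD values thus lay below the ND median in all 5 APP/E4 HFD males, and the libraries overlapped in each group. The difference between genotypes for Fasn was -0.18 ± 0.06 with read class as a term and -0.25 ± 0.08 within class 1 (unadjusted p = 0.00289 and 0.00216). Next by p came Acss2, which makes acetyl-CoA from acetate, at 0.16 ± 0.09, and Tm7sf2 at 0.26 ± 0.14.

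For diet by sex (the diet difference in females minus that in males), 21 of the 32 genes were negative (47.9% of all genes), 0 were called (0% of all genes), and 5 had an unadjusted p under 0.05, all negative, against 3.38% of all genes that were negative at that level. Stard4, a soluble carrier that moves cholesterol between membranes, had the smallest p. It ran from 18.9 to 50.8 CPM with a median of 31.8 in HFD females, against 26.0 to 48.2 CPM with a median of 35.8 in ND females. In males it ran from 31.3 to 41.0 CPM with a median of 36.9 in HFD, against 20.1 to 41.0 CPM with a median of 29.6 in ND. The median was thus lower with HFD in females and higher with HFD in males, with overlap in both, and the difference between the sexes was -0.45 ± 0.14 (unadjusted p = 0.00299, edgeR adjusted p = 0.600). Stard4 differed between diets by -0.25 ± 0.14 in APP/E4 females, 0.26 ± 0.16 in APP/E4 males, -0.18 ± 0.13 in APP/E3 females and 0.21 ± 0.15 in APP/E3 males.

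Hsd17b7 followed with a difference between the sexes of -0.30 ± 0.10, Idi1 with -0.41 ± 0.16, Sc5d with -0.20 ± 0.08 and Sqle with -0.21 ± 0.10 (unadjusted p = 0.00336, 0.0156, 0.0185 and 0.0376). Hsd17b7 had medians of 29.4 CPM in HFD and 34.3 CPM in ND in females, and of 32.7 CPM in HFD and 30.7 CPM in ND in males. With read class as a term, the value was -0.49 ± 0.14 for Stard4 and -0.33 ± 0.09 for Hsd17b7, and within class 1 it was -0.59 ± 0.18 for Stard4 and -0.42 ± 0.13 for Hsd17b7. Choroid plexus markers moved with this contrast too, with positive values for all 5 and a median of 2.33. Without the 5 libraries high in them, Stard4 was at -0.36 ± 0.15 and Hsd17b7 at -0.26 ± 0.10, and 3 genes of the list stayed under the unadjusted threshold. The share of all genes under it in that fit is not given here.

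Between genotypes, 15 of the 32 genes were lower in APP/E4 than in APP/E3 cortex (50% of all genes). The edgeR test called 1 of the 32 (6.79% of all genes were called), and 9 had an unadjusted p under 0.05, against 21.3% of all genes. Stard4 rose in APP/E4, where it ran from 22.2 to 50.8 CPM with a median of 36.8 in 25 libraries, against 18.9 to 41.0 CPM with a median of 31.4 in 27 APP/E3 libraries. The ranges overlapped widely, and the log2 difference was 0.22 ± 0.07 (edgeR quasi-likelihood, Benjamini-Hochberg adjusted p = 0.0499). The call lay at the threshold. It was made in 16 of 52 fits that left out 1 library (edgeR adjusted p between 0.021 and 0.0808), and it was lost with RLE size factors (adjusted p = 0.0501) and without the 5 choroid plexus libraries (0.22, adjusted p = 0.0799). With read class as a term the difference was 0.25 (edgeR adjusted p = 0.0183), and within class 1 it was 0.32 (edgeR adjusted p = 0.0453).

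Scap, the SREBP escort, lay just above the threshold at -0.08 ± 0.03 (edgeR adjusted p = 0.0510), with medians of 103 CPM in APP/E4 and 109 CPM in APP/E3. DESeq2 called it, as did the fit with read class as a term. Mvk was at -0.14 ± 0.05 (edgeR adjusted p = 0.0768), with medians of 17.2 CPM in APP/E4 and 20.3 CPM in APP/E3, and Scd1 at 0.15 ± 0.05 (edgeR adjusted p = 0.0832), with medians of 261 CPM in APP/E4 and 226 CPM in APP/E3. Libraries of the 2 genotypes overlapped in each of these genes. Myelin markers moved with genotype: all 17 were higher in APP/E4 with a median log2 difference of 0.29, and 4 of them were called. Their part in the difference of Stard4, Scd1 and the other genes was not tested.

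**Figure D3:**
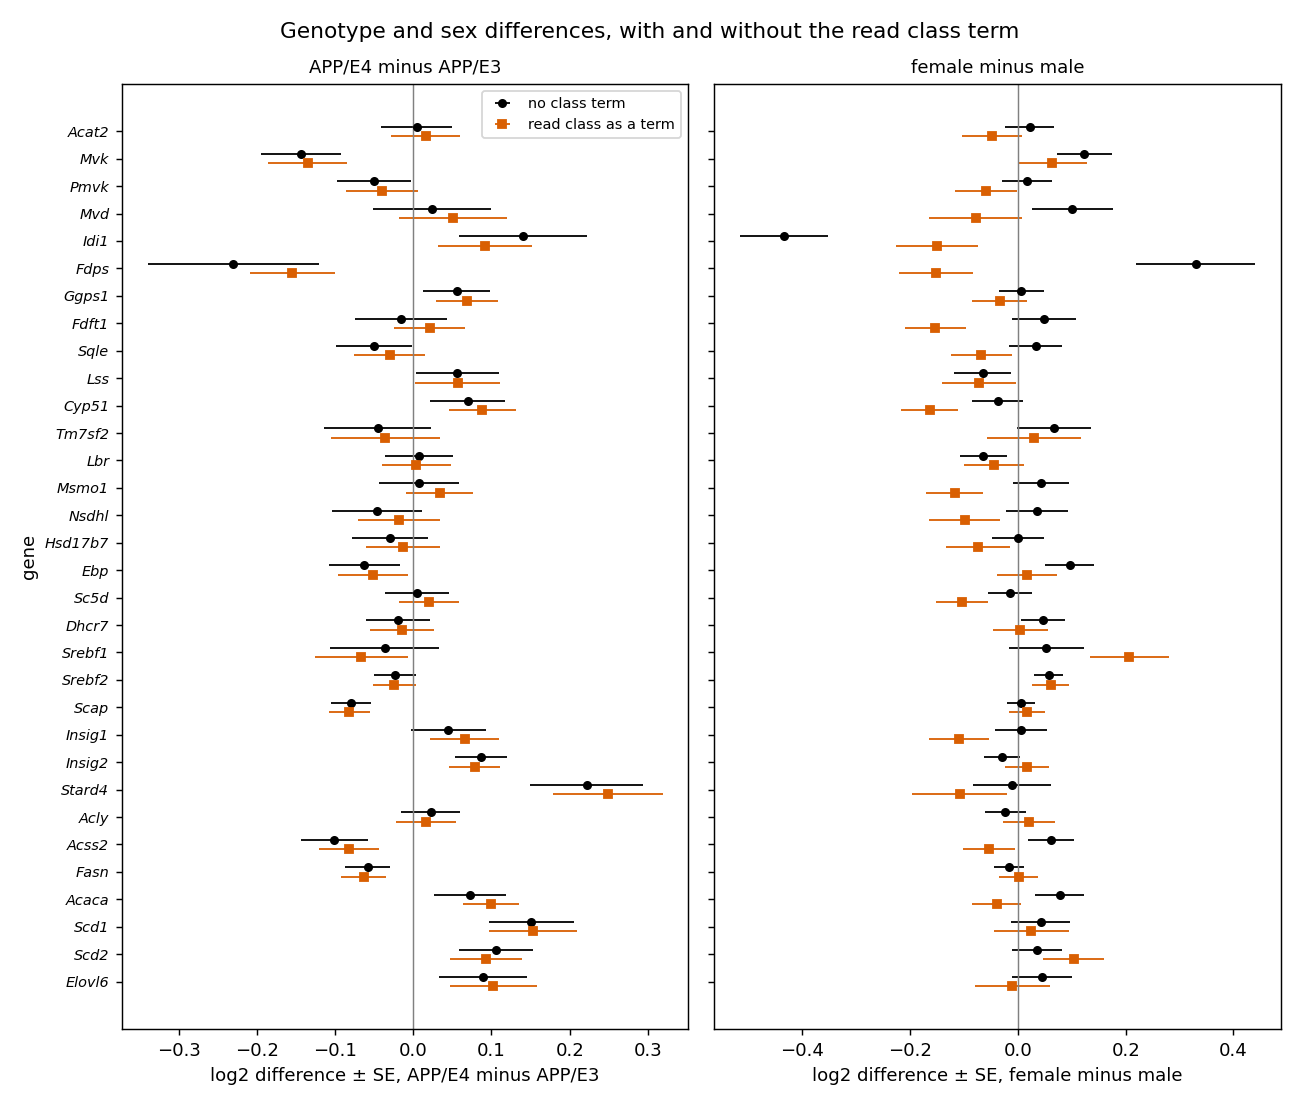
Log2 difference with its SE (bars) of each of the 32 genes for APP/E4 minus APP/E3 (left) and female minus male (right), without (circles) and with (squares) read class as a term. Stard4 was highest between genotypes at 0.22, and Idi1 lowest between sexes at -0.43 without the class term and at -0.15 with it.

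Between sexes, 9 of the 32 genes were lower in females (48.8% of all genes) and 1 was called (4.42% of all genes). The count of lower genes turned to 20 of 32 with read class as a term (48.8% of all genes) and within class 1 (48.3% of all genes). Idi1 fell in females, where it ran from 4.38 to 12.5 CPM with a median of 7.19 in 29 libraries, against 7.49 to 12.7 CPM with a median of 10.5 in 23 male libraries. The log2 difference was -0.43 ± 0.08 (edgeR adjusted p = 0.000674), and the call was made in all 52 fits that left out 1 library. It was lost once read class entered, at -0.15 with read class as a term (edgeR adjusted p = 0.349) and -0.16 within class 1 (edgeR adjusted p = 0.375). The promoter of Idi1 is shown because it was the gene with the largest difference between sexes. It lies at chr13:8885356-8885655 on the plus strand of GRCm38.p6, with CCAAT in capitals, which stands here as ATTGG.
Idi1: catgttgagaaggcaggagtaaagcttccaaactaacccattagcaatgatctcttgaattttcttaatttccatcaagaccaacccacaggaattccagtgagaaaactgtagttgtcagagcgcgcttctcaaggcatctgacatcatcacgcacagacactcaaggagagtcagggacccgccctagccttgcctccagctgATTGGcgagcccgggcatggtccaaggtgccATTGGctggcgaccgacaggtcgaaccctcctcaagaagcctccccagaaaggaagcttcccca
Fdps had a difference of 0.33 ± 0.11, female minus male (edgeR adjusted p = 0.0720), and was at -0.15 with read class as a term.

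The largest log2 difference of a member in the fits described here, that of Fdps, lay between read class 2 and class 1. The classes were drawn from other genes of the same libraries, so their values are given as a description. Of the 32 genes, 13 passed the adjusted threshold between class 2 and class 1 (40.6%), against 22.8% of all genes, and 11 of these were higher in class 2. None of the 32 did between class 3 and class 1 (0.283% of all genes). Fdps ran from 24.5 to 38.4 CPM with a median of 31.3 in the 11 class 2 females, against 11.8 to 22.8 CPM with a median of 17.5 in the 18 class 1 females, without overlap. Idi1 ran the other way, from 4.38 to 7.05 CPM with a median of 5.64 in class 2 females, against 5.80 to 12.5 CPM with a median of 8.76 in class 1 females. These are neighbouring steps of the pathway, since Idi1 makes a substrate of Fdps. Class 1 males, with a median of 9.95 CPM, and class 3 males, with a median of 11.2 CPM, both lay above class 2 females in Idi1 without overlap.

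Against class 1, class 2 was higher in Fdps by 0.91 ± 0.08, in Fdft1 by 0.36 ± 0.06, in Acaca, the acetyl-CoA carboxylase, by 0.29 ± 0.05, in Msmo1 by 0.27 ± 0.06 and in Nsdhl by 0.23 ± 0.07. Sqle, Acss2, Cyp51, Insig1, Ggps1 and Sc5d were higher by between 0.14 and 0.18. The lower genes were Idi1 at -0.55 ± 0.09 and Srebf1 at -0.38 ± 0.08. Srebf1 had a median of 60.2 CPM in class 2 females and 81.5 CPM in class 1 females. Markers of other tissue moved with the same split. The 8 striatal markers summed to a median of 338 CPM in class 2, against 1099 CPM in class 1 of both sexes, the 5 olfactory markers to 14.4 CPM in class 2, against 93.8 CPM in class 1, and the 17 myelin markers to 2826 CPM in class 2, against 3713 CPM in class 1. The libraries of the classes overlapped in all 3 sums, and the part of these tissues in the class differences was not tested. Near-identical copies in the genome could take or give reads in 9 of the 32 genes, among them Fdps with 5 copies and Idi1 with a copy of 100% identity over the aligned bases. Of these 9 genes, 5 passed the threshold between class 2 and class 1, and of the other 23, 8 did. The handling of reads that match several places is not given in the sources used here, and its part was not tested.

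**Figure D4:**
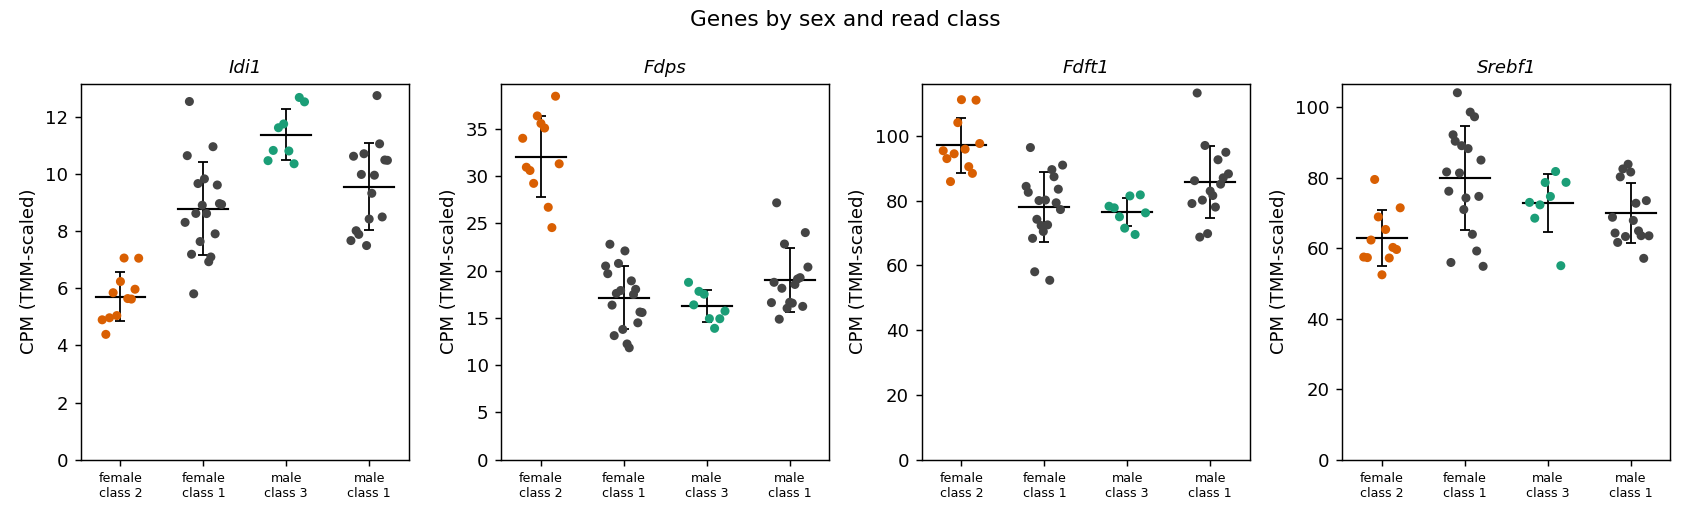
CPM of Idi1, Fdps, Fdft1 and Srebf1 in each library (points) by sex and read class, with mean (line) and SD (bars). Class 2 females lay above class 1 females in Fdps without overlap, at medians of 31.3 and 17.5 CPM, and below them in Idi1 at medians of 5.64 and 8.76 CPM.

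Genes that work together were also followed across libraries, after group means were taken out of the log2 CPM. Since the read classes formed separate clusters, correlations are given within class 1 (n = 33), with p-values from 100000 permutations within groups, two-sided and adjusted over 8 pairs. Insig1 was correlated with Sqle (r = 0.64, rho = 0.62, raw p = 0.00064 and 0.00147, adjusted p = 0.00171 and 0.00392 by permutation), with Msmo1 (r = 0.61, rho = 0.60, raw p = 0.00017 and 0.00067, adjusted p = 0.00068 and 0.00268 by permutation) and with Idi1 (r = 0.53, rho = 0.55, raw p = 0.00546 and 0.00358, adjusted p = 0.0109 and 0.00716 by permutation). Without the 2 libraries farthest from the median of Insig1, r was 0.56 with Sqle, 0.64 with Msmo1 and 0.54 with Idi1. The desaturases Scd1 and Scd2 were correlated (r = 0.70, rho = 0.75, raw p = 0.00011 and 0.0001, adjusted p = 0.00068 and 0.0008 by permutation), as were Fasn and Acly (r = 0.45, rho = 0.48, raw p = 0.00805 and 0.00732, adjusted p = 0.0129 and 0.0117 by permutation), with r of 0.70 and 0.56 without the 2 farthest libraries. Scd1 and Scd2 share a stretch of 94.7% identity, so reads could be split between them.

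For Srebf1 and its lipogenic targets no relation passed by both r and rho over the 33 class 1 libraries. With Fasn, r was 0.09 and rho 0.18 (raw p = 0.652 and 0.392, adjusted p = 0.652 and 0.392 by permutation). With Scd1, r was 0.27 and rho 0.26 (raw p = 0.196 and 0.18, adjusted p = 0.225 and 0.206 by permutation). Without the 2 farthest libraries, r with Scd1 was 0.45 (raw p = 0.0349 by permutation, not adjusted), so this result depends on them. With Acaca, r was -0.53 and rho -0.36 (raw p = 0.0113 and 0.069, adjusted p = 0.0151 and 0.092 by permutation), but r was -0.30 without the 2 farthest libraries, so the relation rests on them. The other classes held fewer libraries, 11 in class 2 and 8 in class 3, and their values are given without a test. Class 2 had r of -0.09 for Insig1 with Sqle, -0.17 with Msmo1 and 0.09 with Idi1, and class 3 had 0.72, 0.22 and 0.52 for the same pairs. For Srebf1, class 2 had r of 0.39 with Fasn, 0.01 with Scd1 and 0.25 with Acaca, and class 3 had 0.64, 0.84 and -0.35 for the same pairs. Class 2 had r of 0.79 for Scd1 with Scd2 and 0.55 for Fasn with Acly, and class 3 had 0.50 and 0.84 for the same pairs.

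**Figure D5:**
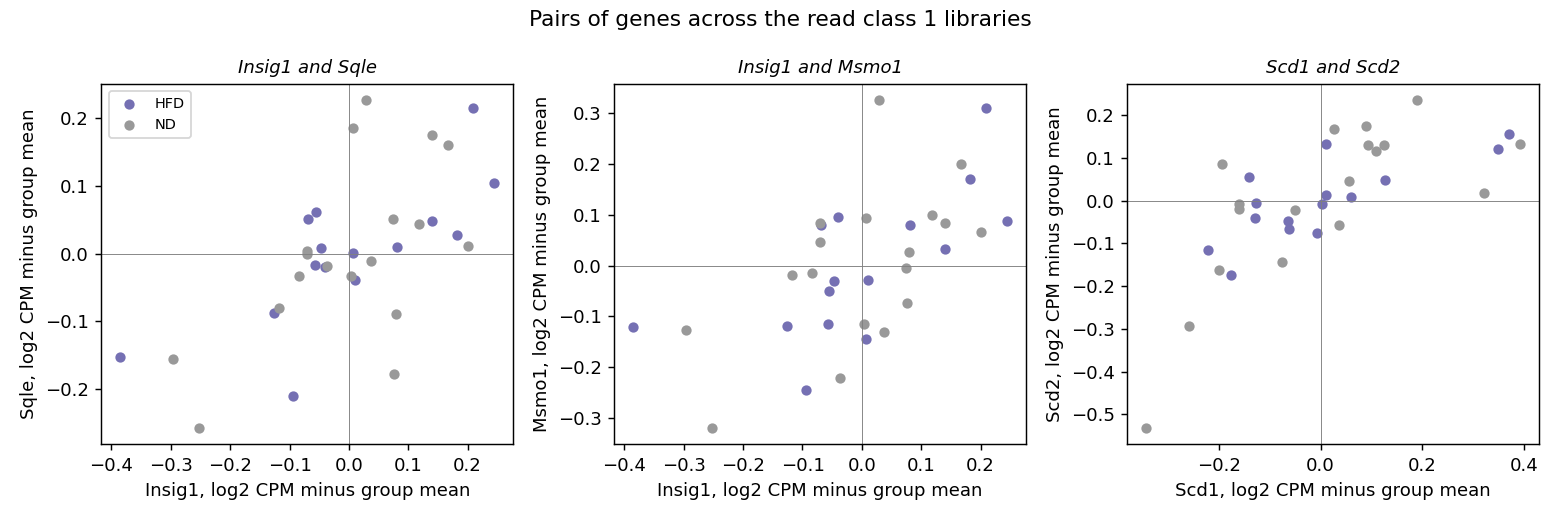
Log2 CPM minus the group mean in the 33 class 1 libraries (points, coloured by diet) for Insig1 and Sqle (r = 0.64), Insig1 and Msmo1 (r = 0.61) and Scd1 and Scd2 (r = 0.70). Libraries high in one gene of a pair tended to be high in the other.

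Other genes of the same pathways were counted from lists of 9 sterol synthesis enzymes, 21 SREBP-linked sterol genes and 37 lipogenesis genes that were tested and are not among the 32. In the averaged diet contrast, 7 of the 9 enzymes, 11 of the 21 SREBP-linked genes and 20 of the 37 lipogenesis genes were lower in HFD, and edgeR called 0 in each list. At an unadjusted p under 0.05, 1 enzyme was lower, 2 SREBP-linked genes were lower and 1 higher, and 2 lipogenesis genes were lower, against the 4.8% of all genes lower and 9.2% in either direction. In the same contrast 51.2% of all genes were lower. Between genotypes edgeR called 0 of the enzymes, 1 of the SREBP-linked genes and 2 of the lipogenesis genes (6.79% of all genes). Cyp46a1, which removes cholesterol from neurons by hydroxylation, fell in APP/E4 by 0.18 on the log2 scale (edgeR adjusted p = 0.00103), and Hsd17b12 and Elovl7, of fatty acid elongation, rose by 0.12 and 0.27 (edgeR adjusted p = 0.0219 and 0.0416). Between sexes it called 0, 1 and 1 in the same order of lists (4.42% of all genes). Npc2, which moves cholesterol out of lysosomes, rose in females by 0.21 (edgeR adjusted p = 0.000651), and Thrsp, a lipogenesis regulator, by 0.26 (edgeR adjusted p = 0.0486).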

How the data were processed

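RNA of frontal cortex (RNA integrity number above 8) was made into 52 mRNA libraries with Illumina reagents, per the labels' protocols. The authors deposited raw counts per gene for all 52 libraries, with a log2 coefficient and a p-value per gene of their own diet comparison. Per the submitters' processing notes, the tools were Subread, featureCounts, limma and edgeR 3.14.0 and the build was mm9. Whether counting used strand is not given in the sources used here. For 6 genes (Acss2, Cyp51, Fdft1, Ggps1, Srebf1, Tm7sf2), part of the exons overlaps another gene of the table. The stretches ran from 109 bases in Srebf1 to 774 bases in Fdft1. The other gene lies on the opposite strand in all but Tm7sf2. Without the strand setting, reads within the opposite-strand stretches cannot be assigned to 1 gene, and in Tm7sf2 the setting would not separate them. The overlaps come from GENCODE annotation on GRCm38, not on mm9.

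From the counts, genes were filtered with filterByExpr (497 of 15692 removed) and scaled with TMM factors. A robust edgeR 4.0.16 quasi-likelihood model (R 4.3.3) with 8 group means gave 9 contrasts, adjusted by Benjamini-Hochberg over all genes of a contrast, with calls at an adjusted p under 0.05. Log2 CPM for correlations carried a prior count of 2. Total counts ranged from 5.34 to 39.4 M, where 3 counts equal between 0.0762 and 0.561 CPM, a floor for counting error alone. Duplicates were not found within groups (chi-square per gene at least 2.95 over 146 pairs). In the symbol column, 24 dates were restored to gene symbols through their gene IDs, of which 15448 matched a RefSeq table. Read classes came from Ward clustering of the libraries on the 50 most variable pseudogenes with a mean count of at least 5, cut into 3 classes. The fit was also run on simulated counts without read class effects. The diet differences set there were larger than any of the members in the averaged diet contrast. That run does not show how the fit performs at differences as small as these.

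Genes named with their values by group passed a contrast's adjusted threshold, or were the 3 with the smallest p-values in a contrast with fewer such genes, or were Sqle, Insig1, Srebf1, Srebf2, Fasn, Scd1 or Scd2. Others named were under the unadjusted threshold, or were chosen after their values were seen, as the printed promoters were. The members and lists were chosen with earlier results of these data known. Alternatives were DESeq2 1.42.0, limma 3.58.1 voom, RLE size factors, no filter, read class and title style as terms, class 1 alone, and each library left out. Leaving out the 5 libraries over 100 CPM of choroid plexus markers was added after the data were seen. Copies were sought among GENCODE transcripts at 90% identity or more over at least 500 bases, leaving out genes that overlap a member's exons, limits also chosen after hits were seen.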

Additional observations from a re-analysis of the deposited data

Results flagged for a closer look

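Within groups of 5 to 8 libraries, 15 of 160 sets of values, from 20 of the 32 genes, had 1 library far from the others by the gap to its nearest neighbour as a share of the group's range. Chance gives about 1 in 20 such sets. APP/E4 HFD female 4 was highest in Elovl6 (0.642, 109 CPM, next 76.2 CPM) and Scd1 (0.581, 359 CPM, next 282 CPM), and APP/E4 HFD female 5 was lowest in Ggps1 (0.588, 32.4 CPM, next 38.4 CPM). Both are among the libraries high in choroid plexus markers, whose part in this was not tested.

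APP/E4 ND male 6 was highest in Mvk (0.768, 24.5 CPM, next 17.7 CPM) and Tm7sf2 (0.818, 18.5 CPM, next 15.1 CPM) and lowest in Scd1 (0.627, 221 CPM, next 261 CPM). APP/E3 ND male 2 was highest in Nsdhl (0.657, 39.9 CPM, next 32.0 CPM) and lowest in Scap (0.676, 90.7 CPM, next 107.6 CPM) and Scd2 (0.764, 1045 CPM, next 1629 CPM). These 2 libraries account for 6 of the 15 values.

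Nsdhl was also high in APP/E3 HFD male 3 (0.639, 33.5 CPM, next 27.4 CPM) and APP/E3 ND female 7 (0.652, 48.0 CPM, next 34.0 CPM), and Mvk in APP/E3 ND female 3 (0.598, 27.8 CPM, next 23.4 CPM). Tm7sf2 was high in APP/E4 HFD male 3 (0.712, 19.0 CPM, next 14.1 CPM). Srebf1 was high in APP/E4 ND female 4 (0.605, 97.3 CPM, next 74.2 CPM) and low in APP/E4 ND male 5 (0.634, 57.1 CPM, next 72.7 CPM).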

How the results depend on the processing

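No member was called in any diet contrast under any alternative run. Between genotypes the count of called members was 1 as reported, 0 with RLE size factors and without the choroid plexus libraries, 2 with DESeq2 and with read class as a term, and 5 with title style added to read class. Leaving out 1 library gave 0 to 2, with Mvk called without APP/E3 HFD female 3 or APP/E4 ND male 6 and Scd1 without APP/E3 HFD female 2 or APP/E4 ND female 6. Between sexes the count was 1 as reported, 0 with either class term and within class 1, and 2 without the choroid plexus libraries, with 1 to 3 when 1 library was left out, where Fdps was called without APP/E4 HFD female 4, APP/E3 HFD female 5, APP/E4 ND male 6 or APP/E3 ND male 2. Under the class terms and within class 1, 20 members were lower in females, against 9 as reported. Between sexes Fdps turned to -0.15 with read class, -0.26 with title style added, and -0.17 within class 1, and Mvk to -0.032 with title style added. The cause was not tested. For diet by genotype, 9 members were negative within class 1, against 14 as reported, and the share of all genes within class 1 is not given here. Over all genes, calls between sexes numbered 671 as reported, 199 with read class, 32 with title style added, 129 within class 1 and 693 without the choroid plexus libraries. Those between genotypes numbered 1032 as reported, 1306 with read class, 1711 with title style added and 405 within class 1. They numbered 1034 with RLE size factors, 1217 with DESeq2 and 836 without the choroid plexus libraries. Calls over all genes are not given here for the fits that left out 1 library. Over all genes, DESeq2 called 2 in the averaged diet contrast, 8 in APP/E3 females and 6 in APP/E3 males, where edgeR called 0, 4 and 0. Depth limits the lowest genes most, and Idi1 had the lowest level of the list. No paired analysis was made, because nothing in the titles pairs libraries across diets, genotypes or sexes. The numbers that name single libraries here were assigned in sample order within each group and are not in the labels.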
